A study of Mus musculus with 4 samples.

Results

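The genes described here encode the heavy chains of mouse MHC class I molecules. They are 10 of the 21878 genes listed in the count table, and all 10 passed the filter on low counts. H2-K1 and H2-D1 are the classical members. H2-Q4, H2-Q6, H2-Q7, H2-T22, H2-T23, H2-T24, H2-M3 and H2-M2 are the 8 non-classical members. The family was chosen by gene name after several of these genes had been seen to be higher in the anti-Act1-labelled libraries. The difference between the groups is therefore given as a description of the members. The calls that edgeR made for them are counted, but as no evidence. Their levels within a group and their sequences were not used in the choice. The lists of genes that work with them were written with earlier results of these data known.

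RNA was sequenced from bone marrow-derived macrophages (BMDMs), which were grown from C57BL/6 bone marrow with the growth factor M-CSF. All of the macrophages had been cocultured with MC38, a mouse colon carcinoma line kept apart from them by a porous insert, for 48 h according to the labels, while the text of the study gives a shorter time. There were 2 libraries with the genotype label WT and 2 with the genotype label anti-Act1, all from mice that the labels give as 8 weeks old and the text of the study as a wider age range. The study describes anti-Act1 mice as animals with lowered Act1, an adaptor protein of IL-17 receptor signalling, in macrophages, and the promoter that drives the transgene is not given in the sources used here.

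A class I heavy chain folds together with beta-2-microglobulin around a short peptide, and the complex travels to the cell surface. The classical molecules show peptides from inside the cell to CD8+ T cells. The non-classical molecules are less variable between individuals and have narrower tasks, among them contact with receptors on NK cells and unconventional T cells. In macrophages, as in most cells, transcription of class I genes is known to respond to interferons and to NF-κB through elements just upstream of the start site.

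All 10 genes lie on mouse chromosome 17, in the order K, D, Q, T and M regions. RefSeq promoter windows (GRCm38.p6, from 250 bases before to 50 bases after a start site) were held for 9 of the 10 members, the exception being H2-T24. The windows were searched on both strands for the core of an interferon response element, written GAANNGAAA, and for the core of an NF-κB site, written GGGNNTTCC. The stretches around the interferon response core are shown for the 7 members that had one, because they let the shared upstream sequence of the family be read beside the expression values. Each is written 5′ to 3′ along the strand of its gene, and capitals mark the matches to both motifs, the interferon response core appearing as its reverse complement. For H2-D1 only the matches and the bases between them are given. They lie upstream of the RefSeq start site, but GENCODE M21 places them inside the gene, in the 5′ untranslated region of a transcript.
H2-K1, chr17:34000419-34000482, minus strand: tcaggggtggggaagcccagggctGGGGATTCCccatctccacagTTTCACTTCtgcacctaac
H2-D1, chr17:35262923-35262952, plus strand: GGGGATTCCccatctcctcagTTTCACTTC
H2-Q4, chr17:35379419-35379482, plus strand: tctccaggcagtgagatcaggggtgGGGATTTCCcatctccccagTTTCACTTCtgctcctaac
H2-Q6, chr17:35424653-35424716, plus strand: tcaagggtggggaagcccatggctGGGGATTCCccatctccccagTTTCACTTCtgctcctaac
H2-Q7, chr17:35438997-35439060, plus strand: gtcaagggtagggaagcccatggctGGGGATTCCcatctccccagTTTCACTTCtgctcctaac
H2-M3, chr17:37270088-37270151, plus strand: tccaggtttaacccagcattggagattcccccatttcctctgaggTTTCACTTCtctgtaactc
H2-M2, chr17:37483678-37483741, minus strand: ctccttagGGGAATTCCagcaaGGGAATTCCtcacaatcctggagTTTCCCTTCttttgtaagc

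The interferon response core was found in the windows of 7 of the 9 members and the NF-κB core in those of 6. H2-K1, H2-D1, H2-Q4, H2-Q6, H2-Q7 and H2-M2 held both. Over all 32851 promoter windows, 7.52% held the first motif, 5.82% the second and 0.417% both. H2-M2 differed from the other members in having 2 NF-κB cores, beginning 179 and 165 bases upstream of its start site. H2-M3 held the interferon response core only. No match to either was found for H2-T22 and H2-T23, which says only that these letters were not in these windows. A match describes letters, and the binding of a factor was not measured.

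Total counts were 64199075 and 75062945 in the WT-labelled libraries and 61926229 and 55435063 in the anti-Act1-labelled libraries, and a gene with 0 counts could lie at up to 3 counts, that is 0.0395 to 0.0549 CPM (counts scaled to the library total). These limits cover counting error only. Traf3ip2, the gene for Act1, had 6.98 and 7.54 CPM in the WT-labelled libraries and 9.63 and 7.84 CPM in the anti-Act1-labelled libraries (log2 fold change 0.27, SE 0.12, adjusted p = 0.117 in edgeR), and it was called higher when anti-Act1 replicate 2 was left out. Its level thus did not fall with the label anti-Act1, and every direction below rests on the labels. The Y-linked gene Ddx3y had 5741 and 7360 counts in the WT-labelled libraries and 0 in both others, so that the sex of the mice and the label cannot be told apart. All 8 macrophage markers were at 1 CPM or more, with a summed level of 24570 to 26254 CPM that overlapped between groups. Most of this sum was Lyz2, at 15809 to 17734 CPM, so it says little of the other markers. Among the 8 markers Mertk (-0.40, adjusted p = 4.09e-08) and Itgam (-0.31, adjusted p = 3.96e-06) were lower and Cd14 (0.16, adjusted p = 0.0113) higher on the log2 scale. Markers of epithelial tumour cells summed to at most 0.464 CPM, and Krt8, Krt18, Krt20 and Cdx2 were at 0. NK cell, B cell and fibroblast markers stayed at or below 0.513 CPM in sum, and dendritic cell and neutrophil markers at or below 7.11 CPM with overlapping groups. Within the neutrophil list S100a8 was higher (0.66, adjusted p = 0.000564) and S100a9 (-1.42, adjusted p = 0.00065) and Ngp (-2.21, adjusted p = 0.00181) lower on the log2 scale. The 6 T cell markers summed to 25.8 to 25.9 CPM in the WT-labelled libraries and 27.9 to 31.4 CPM in the others, nearly all of it Cd4 (log2 fold change 0.21, adjusted p = 0.0358), while Cd3d, Cd3e, Cd3g and Cd8a had at most 6 counts in any library. The part of these markers in the values below was not tested.

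The classical genes were among the most abundant transcripts of these macrophages. Levels are compared between genes as deposited FPKM, in which counted fragments are scaled to gene length and to the library total. H2-D1 (chr17:35262730-35267499, plus strand) had 3507 and 3286 FPKM in the WT-labelled libraries and 3979 and 4040 FPKM in the anti-Act1-labelled libraries. H2-K1 (chr17:33996017-34000347, minus strand) had 1970 and 1853 FPKM and 2459 and 2526 FPKM, respectively. By the mean FPKM of the WT-labelled libraries, H2-D1 held rank 12 and H2-K1 rank 17 of all genes. Both were higher in both anti-Act1-labelled libraries than in either WT-labelled library. The share of all genes whose groups lie apart in this way is not given here. Such statements, here and below, are therefore descriptions only.

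The non-classical genes covered a wide range of levels below these. H2-T23 (chr17:36029773-36032855, minus strand), which encodes the Qa-1 heavy chain that presents leader peptides of other class I molecules to CD94/NKG2 receptors of NK cells, had 398 and 369 FPKM in the WT-labelled libraries and 469 and 475 FPKM in the anti-Act1-labelled libraries. H2-T22 (chr17:36037128-36042747, minus strand), a ligand of some γδ T cell receptors, had 93.4 and 90.8 FPKM and then 132 and 133 FPKM. H2-T24 (chr17:36005695-36020560, minus strand) had 50.7 and 51.0 FPKM and then 64.8 and 60.8 FPKM. H2-T23, H2-T22 and H2-T24 were higher in the anti-Act1-labelled libraries, the direction on which the family was chosen.

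H2-Q4 (chr17:35379617-35385290, plus strand) had 155 and 152 FPKM in the WT-labelled libraries and 212 and 209 FPKM in the anti-Act1-labelled libraries. H2-Q7 (chr17:35439155-35443773, plus strand), a gene for the Qa-2 antigen that is held at the cell surface by a lipid anchor, had 54.8 and 51.7 FPKM and then 106 and 108 FPKM. Its neighbour H2-Q6 (chr17:35424850-35430055, plus strand) had 47.1 and 43.3 FPKM and then 89.0 and 95.7 FPKM. The levels of H2-Q6 and H2-Q7 in the anti-Act1-labelled libraries were thus about 2 times those in the WT-labelled libraries.

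In the M region, H2-M3 (chr17:37270220-37274484, plus strand), which presents formylated peptides such as those of bacteria and mitochondria, had 38.7 and 37.7 FPKM in the WT-labelled libraries and 43.5 and 43.8 FPKM in the anti-Act1-labelled libraries. H2-M2 (chr17:37480851-37483552, minus strand) had 5.42 and 5.85 FPKM and then 31.0 and 28.8 FPKM. H2-M2 was the lowest of the 10 members in every library, and its groups lay far apart, while those of H2-M3 lay apart by a small margin.

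**Figure D1:**
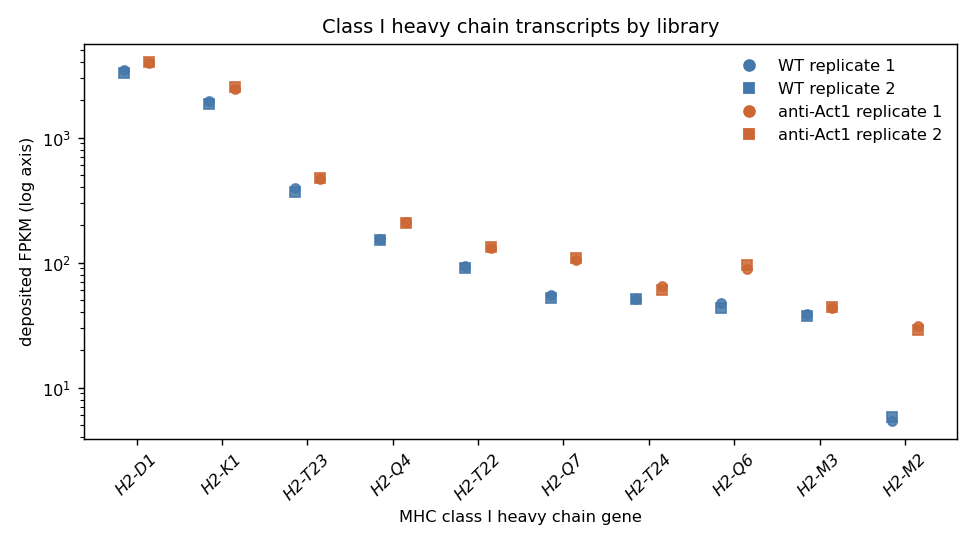
Deposited FPKM on a log axis of the 10 class I heavy chain genes, ordered by their mean in the WT-labelled libraries, with 1 point per library. The orange anti-Act1 points lie above the blue WT points for every gene, the direction on which the family was chosen. They run from 3979 and 4040 against 3507 and 3286 FPKM for H2-D1 to 31.0 and 28.8 against 5.42 and 5.85 FPKM for H2-M2. The share of all genes whose groups lie apart is not given here.

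In the WT-labelled libraries the members followed the order H2-D1, H2-K1, H2-T23, H2-Q4, H2-T22, H2-Q7, H2-T24, H2-Q6, H2-M3 and H2-M2, and no neighbours in that order overlapped. H2-Q7 and H2-T24 stood closest, at 51.7 to 54.8 FPKM and 50.7 to 51.0 FPKM. By mean FPKM, H2-T23 held rank 142 of all genes, H2-Q4 rank 428, H2-T22 rank 728, H2-Q7 rank 1375, H2-T24 rank 1438, H2-Q6 rank 1644, H2-M3 rank 1982 and H2-M2 rank 7438. In the anti-Act1-labelled libraries the order was the same, except that H2-Q6 stood above H2-T24. The place of H2-Q6 depends on the gene length: the deposited FPKM correspond to 981 bases, and its transcript in the GENCODE M21 annotation has 2085 bases.

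For differences between the groups, counts were scaled to CPM and fitted with edgeR over all 12494 genes that passed the filter. Among the members H2-M2 had the largest difference. It had 504 and 636 counts in the WT-labelled libraries and 2782 and 2311 in the anti-Act1-labelled libraries, that is 7.80 and 8.38 CPM against 45.04 and 42.3 CPM, a 5.40-fold ratio of means and a log2 fold change of 2.43 (SE 0.08). H2-Q6 had 45.9 and 42.0 CPM against 87.5 and 95.3 CPM (log2 fold change 1.06, SE 0.06). H2-Q7 had 74.3 and 69.7 CPM against 145 and 149 CPM (1.03, SE 0.05). These 3 members, all non-classical, were the ones with a ratio above 2 between the group means.

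The other non-classical members differed by less. H2-T22 had 156 and 151 CPM in the WT-labelled libraries and 222 and 228 CPM in the anti-Act1-labelled libraries (log2 fold change 0.55, SE 0.05), and H2-Q4 had 276 and 269 CPM against 381 in both (0.48, SE 0.05). For H2-T24 the values were 90.5 and 90.6 CPM against 117 and 111 CPM (0.33, SE 0.05), and for H2-T23 they were 521 and 480 CPM against 619 and 636 CPM (0.33, SE 0.05). H2-M3 differed least, with 54.8 and 53.1 CPM against 62.2 and 63.4 CPM (0.22, SE 0.06).

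The classical genes lay within the range of these smaller differences. H2-K1 had 3204 and 2999 CPM in the WT-labelled libraries and 4037 and 4197 CPM in the anti-Act1-labelled libraries (log2 fold change 0.41, SE 0.05). H2-D1 had 6048 and 5642 CPM against 6926 and 7120 CPM (0.27, SE 0.05). The median log2 fold change was 0.34 for the 2 classical members and 0.52 for the 8 non-classical members, whose values ran from 0.22 to 2.43, so that both classical values fell inside the non-classical range.

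All 10 members were called higher in the anti-Act1-labelled libraries and 0 lower at an adjusted p under 0.05. Of the 12494 genes tested, 10.9% were called higher, 9.76% lower and 20.7% in either direction, with a median log2 fold change of -0.0046 over all genes and 0.45 over the members. Nothing is read from this count, because the family was picked on the same contrast. The call of H2-M3 was lost without anti-Act1 replicate 2, where its log2 fold change was 0.21. With 2 libraries a group, the edgeR model draws its estimate of spread largely from all genes tested. The standard errors therefore do not measure the spread between the libraries for a single gene. The study calls the libraries of a group biological replicates. In bulk RNA, a change in the cells present and a change in RNA per cell cannot be told apart.

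**Figure D2:**
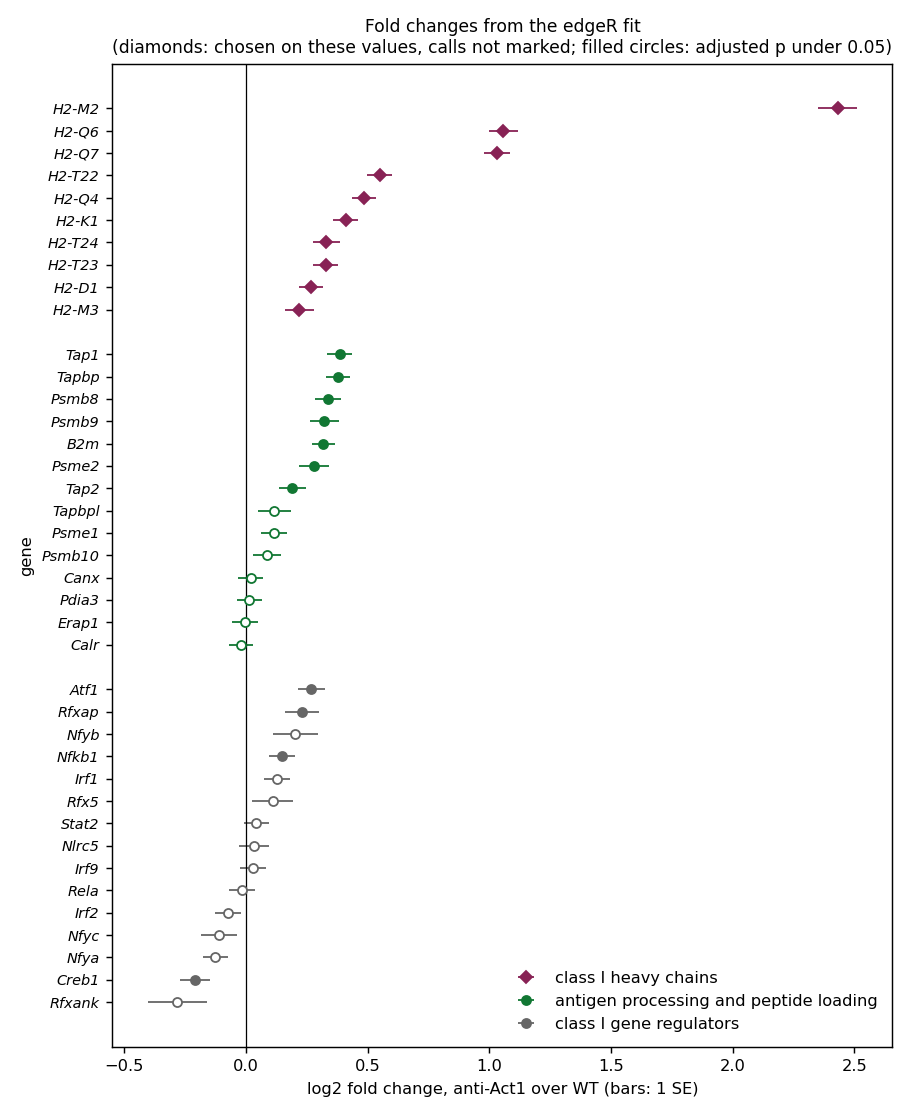
Log2 fold change of the anti-Act1-labelled libraries over the WT-labelled libraries, with bars of 1 SE from the edgeR fit, for the heavy chains (diamonds, chosen on these values, so that no call is marked), genes of antigen processing and regulators of class I genes (circles, filled where the adjusted p was under 0.05). H2-M2 stands alone at 2.43, H2-Q6 and H2-Q7 lie near 1, and the other genes lie between -0.28 and 0.55.

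Summed, the 10 members made up 1.05% and 0.991% of all counts in the WT-labelled libraries and 1.26% and 1.28% in the anti-Act1-labelled libraries. Their summed level was 6320 and 5940 FPKM against 7585 and 7721 FPKM. The classical pair supplied 86.7% and 86.5% of this sum in the WT-labelled libraries and 84.9% and 85.04% in the others, a difference of -1.63 percentage points. With 2 libraries against 2 an exact permutation test cannot go below p = 0.333, so these shares are given without one. Without H2-Q4, H2-Q6 and H2-Q7 the difference was -0.53 percentage points.

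Ratios within a library do not depend on its depth, and they set the members against each other. H2-K1 amounted to 56.2% and 56.4% of the FPKM of H2-D1 in the WT-labelled libraries and to 61.8% and 62.5% in the anti-Act1-labelled libraries. H2-Q7 stood at 2.78% and 2.79% of H2-K1 in the former and at 4.30% and 4.27% in the latter. H2-T23 differed the other way, with 20.2% and 19.9% of H2-K1 against 19.1% and 18.8%. The members were picked on this contrast and the ratios were added after values were seen. Groups that lie apart in a ratio are therefore a description only.

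H2-M2 stood at 14.0% and 15.5% of the FPKM of H2-M3 in the WT-labelled libraries and at 71.2% and 65.6% in the anti-Act1-labelled libraries. H2-Q6 was 85.9% and 83.7% of H2-Q7 and then 84.0% and 88.7%, values that overlapped between the groups. The summed heavy chains came to 124% and 114% of the FPKM of B2m, the gene for beta-2-microglobulin, in the WT-labelled libraries and to 118% and 124% in the others, so the ratio of heavy chain to light chain transcripts also overlapped.

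**Figure D3:**
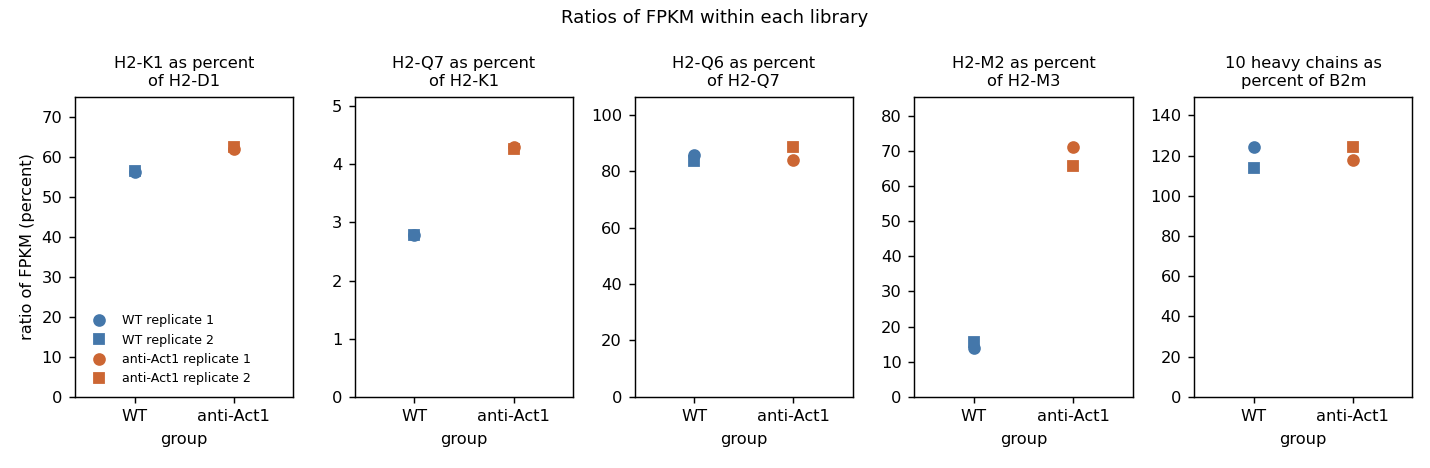
Ratios of deposited FPKM within each library, in percent on axes that start at 0, for 4 pairs of heavy chain genes and for the summed heavy chains over B2m, with 1 point per library. The groups lie apart for H2-K1 over H2-D1, H2-Q7 over H2-K1 and H2-M2 over H2-M3. They overlap for H2-Q6 over H2-Q7 and for the sum over B2m. The members were picked on this contrast, so this is a description only.

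Several members have near-identical copies, and reads from these could have been split or lost in the authors' alignment and counting. In GENCODE M21 transcripts, 9.68% of the windows of 150 bases, the length of 1 read, in H2-Q7 also occurred in another gene, and 8.44% of its windows occurred in H2-Q6, while 5.99% of the windows of H2-Q6 occurred in H2-Q7. H2-Q4 shared 8.39% with Gm11131, a gene that overlaps it on the opposite strand. H2-D1 shared 1.79% with H2-Q1, H2-T22 0.931% with H2-T10 and H2-T23 0.831% with Gm7030. H2-K1, H2-T24, H2-M3 and H2-M2 shared 0 such windows. Only identical windows were searched, so stretches that differ by a few bases are not covered.

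Shorter windows of 50 bases were shared more often, in 44.7% for H2-T22, 39.2% for H2-Q4, 35% for H2-Q6, 34.9% for H2-Q7 and 29.8% for H2-T23. The shares were 14.3% for H2-D1, 8.79% for H2-K1, 3.23% for H2-T24, 1.67% for H2-M2 and 0.576% for H2-M3. H2-T22, H2-T23 and H2-T24 are overlapped by A930015D03Rik on the opposite strand. The use of strand in the counting is not given in the sources used here, so reads of such pairs cannot be told apart. To rejoin reads split between copies of a region, the counts of class I genes in the table were summed within each region before the fit. Such a sum does not restore lost reads or join copies in different regions. The copies H2-T10, H2-Q5 and Gm11131 were not in the count table. The log2 fold change was 0.32 (SE 0.05) for the sum of H2-K1 and H2-D1 and 0.67 (SE 0.05) for 6 Q genes. It was 0.38 (SE 0.05) for 9 T genes and 0.78 (SE 0.06) for 12 M genes. Of the M genes only H2-M2 and H2-M3 had any counts, so that sum is of these members alone.

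**Figure D4:**
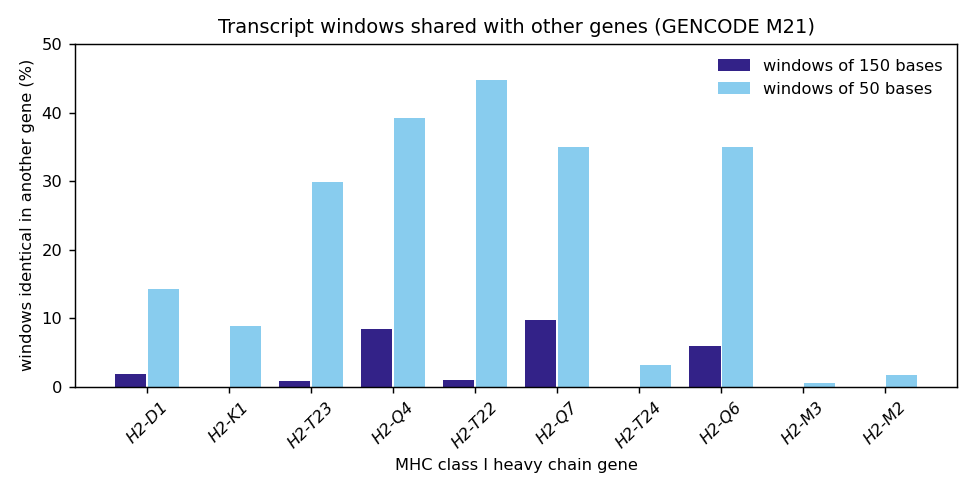
Percent of the windows of each member's transcript that also occurred in a transcript of another gene of GENCODE M21, for windows of 150 bases (dark bars) and 50 bases (light bars), on an axis from 0. H2-Q7, H2-Q4 and H2-Q6 shared 9.68%, 8.39% and 5.99% of the longer windows, and H2-K1, H2-T24, H2-M3 and H2-M2 shared 0.

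Other class I genes of the region were mostly silent or rare in these macrophages. Of 35 names searched, 21 were in the table, 12 of these had at most 3 counts in every library, and 6 could be tested. H2-Q1 rose, with 6.98 and 5.61 CPM in the WT-labelled libraries and 8.89 and 10.99 CPM in the anti-Act1-labelled libraries (log2 fold change 0.66, SE 0.13, adjusted p = 6.84e-05 in edgeR). H2-T-ps, whose name marks it as a pseudogene, rose from 13.9 and 11.9 CPM to 23.1 and 18.9 CPM (0.71, SE 0.09, adjusted p = 4e-08). Gm8909 rose from 0.433 and 0.237 CPM to 1.04 and 0.641 CPM (1.34, SE 0.44, adjusted p = 0.0216), a call that was lost with DESeq2, with unfiltered limma, without WT replicate 2 and without anti-Act1 replicate 1. Gm11127, Gm7030 and Gm10499 did not pass the test (adjusted p from 0.526 to 0.722). H2-Q1, H2-T-ps and Gm8909 share stretches with more abundant members. H2-D1 shared 1.79% of its windows of 150 bases with H2-Q1. Of windows of 50 bases, H2-T23 shared 12.9% with H2-T-ps and H2-Q7 7.06% with Gm8909. Whether reads of the members were counted for these genes was not tested. The 6 genes of the H2-M10 cluster and H2-M1, H2-M5, H2-M9, H2-M11 and H2-T3 had 0 counts in all libraries.

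Among genes for proteins with a class I-like fold, which lie outside this region, 2 of 5 tested rose, 2 fell, 1 did not pass the test and Azgp1 had 0 counts, beside 10.9% higher and 9.76% lower of all genes tested. Procr, the endothelial protein C receptor, had 31.4 and 30.8 CPM in the WT-labelled libraries and 60.2 and 62.0 CPM in the anti-Act1-labelled libraries (log2 fold change 0.97, SE 0.06, adjusted p = 2.66e-17 in edgeR). Cd1d1, which presents lipids to NKT cells, had 17.3 and 19.8 CPM against 25.7 and 28.1 CPM (0.53, SE 0.08, adjusted p = 6.71e-07). Fcgrt, the neonatal Fc receptor that recycles IgG, fell from 104 and 99.9 CPM to 81.5 and 80.9 CPM (-0.33, SE 0.05, adjusted p = 5.87e-06). Hfe, a regulator of iron uptake, fell from 79.5 and 79.5 CPM to 70.4 and 69.6 CPM (-0.18, SE 0.06, adjusted p = 0.0133), and its call was lost when either anti-Act1-labelled library was left out. Mr1, which presents vitamin B metabolites to MAIT cells, had 47.1 and 46.4 CPM against 49.4 and 47.2 CPM (0.05, SE 0.06, adjusted p = 0.661).

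Heavy chains need partners to be loaded with peptide, and 7 of 14 genes of this machinery were called higher and 0 lower, that is 50% against 10.9% of all genes tested. The list was written with earlier results of these data known, so this share is not independent evidence. Their median log2 fold change was 0.15. B2m had 4342 and 4430 CPM in the WT-labelled libraries and 5529 and 5403 CPM in the anti-Act1-labelled libraries (log2 fold change 0.32, SE 0.05, adjusted p = 1.08e-06 in edgeR). Tap1, a chain of the peptide transporter of the endoplasmic reticulum, had 162 and 160 CPM against 206 and 215 CPM (0.38, SE 0.05, adjusted p = 7.6e-08). Tapbp, or tapasin, which bridges the transporter and the heavy chain, had 514 and 538 CPM against 676 and 691 CPM (0.38, SE 0.05, adjusted p = 6.19e-08). The groups lay apart for all 3, a description only, since the share of all genes that do so is not given here.

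The immunoproteasome subunits Psmb8 (162 and 151 against 189 and 206 CPM, log2 fold change 0.34, edgeR adjusted p = 3.14e-06) and Psmb9 (56.5 and 51.4 against 67.2 and 67.6 CPM, 0.32, adjusted p = 4.7e-05) rose as well. Psme2 (0.28, adjusted p = 0.000549) and Tap2 (0.19, adjusted p = 0.00902) were the other genes called. The call of Psme2 was kept in 10 of 13 alternatives and that of Tap2 in 8 of 13, the latter lost with each limma fit. The chaperones Calr, Canx and Pdia3, the peptidase Erap1, Tapbpl, Psmb10 and Psme1 did not pass the test, with log2 fold changes from -0.02 to 0.12.

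Of 15 genes for factors that act on class I promoters, 3 were called higher and 1 lower, 20% and 6.67% against 10.9% and 9.76% of all genes tested, and their median log2 fold change was 0.03. Nlrc5, the coactivator that is central to class I transcription, had 55.7 and 53.1 CPM in the WT-labelled libraries and 54.5 and 56.8 CPM in the anti-Act1-labelled libraries (0.03, SE 0.06, adjusted p = 0.771 in edgeR), values that overlapped.

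Atf1, a CREB-family factor, rose by 0.27 on the log2 scale (edgeR adjusted p = 0.000214). Rfxap, a subunit of the RFX complex, rose by 0.23 (adjusted p = 0.0123), a call lost with unfiltered limma, without WT replicate 2 and without anti-Act1 replicate 2. Nfkb1, the p105/p50 subunit of NF-κB, rose by 0.15 (adjusted p = 0.0465), a call kept in only 3 of 13 alternatives. It was lost with DESeq2, with the replicate block and with each limma fit, among others. Creb1 fell by 0.21 (adjusted p = 0.0107), a call kept in 7 of 13 alternatives and lost with each limma fit. The other 11 genes did not pass the test.

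Receptors of class I molecules and members of related receptor families were searched as 13 names, of which 7 could be tested. Pira6, an activating paired immunoglobulin-like receptor, rose from 10.15 and 10.7 CPM to 12.99 and 14.8 CPM (log2 fold change 0.41, SE 0.10, adjusted p = 0.00153 in edgeR), a call lost with unfiltered limma and without anti-Act1 replicate 2. Lilr4b, for which recognition of class I molecules is not assumed here, fell from 365 and 406 CPM to 313 and 299 CPM (-0.33, SE 0.05, adjusted p = 2.9e-06). Pirb, the inhibitory paired immunoglobulin-like receptor on myeloid cells, had 453 and 456 CPM against 435 and 449 CPM (-0.04, SE 0.05, adjusted p = 0.656). Genes of near-identical receptor families carry the same doubt over shared reads as the heavy chains.

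The members are spread over the stretch of chromosome 17 that runs from H2-K1 to H2-M2. In this stretch 83 tested genes gave 13 called higher and 5 lower, 15.7% and 6.02%, with a median log2 fold change of -0.01. These 83 leave out the class I family and every other gene whose symbol begins with H2-, so class II genes of that name are not covered. Without the antigen processing genes among them, 9 of 79 (11.4%) were called higher and 5 (6.33%) lower. Over all genes tested these shares were 10.9% and 9.76%. The genes left out, Tap1, Tap2, Psmb8 and Psmb9, were all called higher, so the share called higher had to fall without them.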

How the data were processed

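According to the study's methods, the authors filtered pairs of 150 bp reads for adapter sequence, undetermined bases and poor quality, and aligned what was left with TopHat on a Bowtie index. The submitters' processing notes list Bowtie 0.12.2 and HTSeq 0.6.1 and the builds mm8 and mm10, without roles. The authors deposited whole read counts per gene without normalization. They also deposited FPKM values, matched here to the counts by gene name because the tables differ in order.

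Counts were fitted with edgeR 4.0.16 (R 4.3.3): TMM normalization, filterByExpr, a model of label only, the two-sided quasi-likelihood F test and Benjamini-Hochberg adjustment over 12494 genes at 0.05. CPM are counts scaled to the TMM-adjusted library total, and standard errors come from this model. The steps were tested on simulated data. The 2 libraries of a group differed beyond sampling noise (chi-square per degree of freedom 9.41 for WT and 6.58 for anti-Act1).

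The alternatives tried were the Wald test of DESeq2 1.42.0, its size factors within edgeR, library totals alone, all genes unfiltered, a minimum of 10 counts throughout, a replicate block, class I counts summed by region and the omission of single libraries. A further set used limma 3.58.1 with trend on log2 FPKM, with a pseudocount of 1 or 0.1 and a minimum of 1 FPKM in 2 libraries, or unfiltered. The named genes are all members, Traf3ip2, other class I and class I-like genes, and from each further list up to 5 called genes with the largest changes plus B2m, Nlrc5, Tap1 and Pirb. A gene of the regulator list is not reported here and was left out of its counts. The members and lists were chosen with earlier results of these data known. Tap2 and Psme2, which belong to the list as written, were named after values were seen. H2-T-ps, the genes between H2-K1 and H2-M2, the ratios within libraries and the windows of 50 bases were added after values were seen. Positions are from GENCODE M21 (GRCm38).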

Additional observations from a re-analysis of the deposited data

How the results depend on the processing

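Of the 10 members, 8 to 10 were called higher and 0 lower in each of the 13 alternatives that refit all genes, which is no support, since the family was picked on this contrast. The calls of H2-K1 (0.38) and H2-D1 (0.24) were lost with unfiltered limma on log2(FPKM + 1) and that of H2-M3 (0.21) without anti-Act1 replicate 2. No log2 fold change of a member changed sign, and that of H2-M2 ran from 2.22 to 2.49. In that unfiltered limma fit, 583 genes were called higher and 509 lower, against 1366 and 1220 with edgeR, and 4 antigen processing genes and 0 regulators were called higher against 7 and 3. The calls of B2m, Atf1, Lilr4b, H2-Q1 and H2-T-ps were among those lost in that fit. Leaving out single libraries gave 1 to 3 regulators called higher, the 1 without WT replicate 2 and without anti-Act1 replicate 2, and 0 to 1 called lower. Without composition normalization 2 regulators were called lower, and with each limma fit 0. The classical share differed by -1.40 percentage points when computed on counts. Without H2-Q4, H2-Q6 and H2-Q7 the difference was -0.53 against -1.63. No source says that a replicate number marks a shared animal or day, and deviations of same-numbered libraries correlated at -0.03 over 12494 genes. With the replicate block, 10 members, 7 antigen processing genes and 2 regulators were called higher, and 1293 genes were called higher and 1113 lower. The lower counts and the named genes outside the family were run through the alternatives after the data were seen. The causes of these changes were not tested.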
